A study of Mus musculus with 6 samples.

Results

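The Reg genes encode small secreted C-type lectins that were first described in the regenerating pancreas and that include abundant antimicrobial products of the gut epithelium. Of this family, 5 genes, Reg3b, Reg3g, Reg3a, Reg1 and Reg4, were taken by symbol from a table of 23402 genes, and all 5 were found. Each is described by its level in 6 RNA sequencing libraries of whole intestinal tissue labelled as terminal ileum, by how the genes varied together, and by the difference between the 2 groups of libraries. The group labelled KO held 3 libraries of the genotype Il17rafl/fl;Atoh1-cre+, and the group labelled WT held 3 libraries of Cre-negative littermates, Il17rafl/fl;Atoh1-cre-. All mice were 6 weeks old, carried the floxed Il17ra alleles, and were sampled on day 6 of dextran sodium sulfate (DSS), a polysaccharide given in the drinking water that injures the gut lining. Il17ra encodes a shared subunit of the receptors for interleukin-17 (IL-17). Atoh1 drives Cre in the lineage of Paneth, goblet and enteroendocrine cells, so by design the absorptive enterocytes of KO mice would keep a floxed, undeleted gene. In which cells deletion took place was not measured here. No mice without DSS were analysed here. The labels do not say whether each library is 1 mouse, so p values measure only the spread between these libraries, which may be technical.

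Reg3b and Reg3g are made by enterocytes and Paneth cells. Reg3g binds the peptidoglycan of Gram-positive bacteria and helps to keep them off the mucosal surface, while Reg3b is known for its action on Gram-negative bacteria. Both are induced by microbial signals through the adaptor MyD88 and by interleukin-22 (IL-22) through the transcription factor STAT3, and IL-17 can add to that induction. Reg1 and Reg2 are best known from the exocrine pancreas. Reg4 is expressed in enteroendocrine and other secretory cells of the gut.

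Reg3b, Reg3g, Reg3a and Reg1 lie with Reg2 and Reg3d in 1 cluster on mouse chromosome 6, from 78370657 to 78468872 (GRCm38, GENCODE M21), a span of 98.2 kb in which these 6 are the only annotated genes. Reg3b (78370657 to 78373466, plus strand) and Reg3g (78466269 to 78468872, minus strand) stand at the opposite ends of the cluster. Reg3a (78380709 to 78383827) and Reg1 (78422711 to 78428667) lie between them on the plus strand, and Reg4 lies apart on chromosome 3 (98222156 to 98236748, plus strand). All are protein-coding. In the annotation's transcripts the coding sequences of Reg3b and Reg3g encode proteins of 175 and 174 residues that are 70.9% identical. Reg3a, with 175 residues, is 58.9% identical to Reg3b and 58.3% identical to Reg3g. Reg4, with 157 residues, is the most distant of the 5 from Reg3b, at 33.9% identity. The longest run of bases shared by the transcripts of Reg3b and Reg3g is 35, and each shares at most 24 with that of Reg3a. The sources used here give neither the read length nor how fragments that match several genes were divided, so a part of each value could come from a paralog.

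The promoters of the 3 Reg3 genes are shown because Reg3b and Reg3g had the same order of libraries while Reg3a did not. Each is 250 bases before and 50 bases after the start of the gene in RefSeq (GRCm38.p6), read along the gene's own strand. They lie at chr6:78370635-78370934 on the plus strand for Reg3b, chr6:78468825-78469124 on the minus strand for Reg3g and chr6:78380459-78380758 on the plus strand for Reg3a. The RefSeq start of Reg3b lies inside the longer GENCODE gene. Capitals mark matches to the motifs named next.
Reg3b: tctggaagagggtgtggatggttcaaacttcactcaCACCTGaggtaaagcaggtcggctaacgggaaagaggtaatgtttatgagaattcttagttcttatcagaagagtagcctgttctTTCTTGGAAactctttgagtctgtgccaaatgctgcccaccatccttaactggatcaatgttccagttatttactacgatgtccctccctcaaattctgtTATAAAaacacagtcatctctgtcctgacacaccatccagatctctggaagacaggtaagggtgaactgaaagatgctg
Reg3g: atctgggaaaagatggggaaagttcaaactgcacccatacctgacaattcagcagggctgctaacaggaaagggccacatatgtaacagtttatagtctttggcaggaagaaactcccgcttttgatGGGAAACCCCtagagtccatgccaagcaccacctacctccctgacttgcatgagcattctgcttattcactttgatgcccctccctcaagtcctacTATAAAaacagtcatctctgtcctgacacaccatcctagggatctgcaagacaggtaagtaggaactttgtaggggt
Reg3a: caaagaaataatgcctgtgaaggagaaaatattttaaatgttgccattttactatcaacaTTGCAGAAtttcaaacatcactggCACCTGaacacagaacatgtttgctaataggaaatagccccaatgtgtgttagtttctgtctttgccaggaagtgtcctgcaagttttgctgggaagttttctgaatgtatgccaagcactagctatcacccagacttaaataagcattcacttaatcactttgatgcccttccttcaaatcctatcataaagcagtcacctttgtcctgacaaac

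In the Reg3b promoter the STAT motif TTCNNNGAA, which reads the same on both strands, matched 129 to 121 bases before the start as TTCTTGGAA. In the Reg3g promoter a loose 10-base NF-kB motif, searched on both strands, matched 123 to 114 bases before the start as GGGAAACCCC. The TATA motif TATAAA, searched on the gene's strand, began 29 bases before the start in Reg3b and 27 bases before it in Reg3g, and was also present in Reg1. The Reg3a window had no TATAAA. It held a C/EBP motif, TTGCNNAA on either strand, 190 to 183 bases before the start, and an E-box, CACCTG on either strand, which the windows of Reg3b and Reg4 also held. None of the marked matches overlap each other in these 3 windows. Of 27025 RefSeq promoters of the same length, 8.47% held the STAT motif, 50.4% the NF-kB motif, 8.88% the TATA motif, 10.8% the C/EBP motif and 20.0% the E-box. The sixth motif searched, the RORE half-site AGGTCA on either strand, was in 0 of the 5 windows and in 16.0% of all promoters. The windows of Reg2 and Reg3d, cluster genes outside the 5, held some of the same motifs. That of Reg3d held the STAT motif, the E-box and the RORE half-site. That of Reg2 held the TATA motif, the C/EBP motif and the E-box. A match describes the letters and is not shown to be a bound site. Aligned over the whole window, the promoters of Reg3b and Reg3g were 68.1% identical, while every other pair of the 7 Reg genes lay between 44.0% and 54.3%.

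Values are FPKM, fragments per kilobase of transcript scaled to library depth, as the authors deposited them, so levels of different genes can be set side by side per length. The libraries listed 16317 to 16547 genes above 0, had pairwise rank correlations of 0.978 to 0.986 across genes, and held about 8280000 to 9510000 fragments, estimated from the steps of their lowest values. Il17ra itself, the targeted gene, was no lower in the libraries labelled KO (7.93, 8.36 and 6.07 FPKM) than in those labelled WT (6.04, 5.91 and 6.53 FPKM), so it does not check the labels. The sources used here do not say which exons are floxed. The tissue label was set against genes that define the distal small intestine. Fabp6, the ileal bile acid binding protein, stood at 0.316, 1.02 and 2.41 FPKM in libraries labelled KO and at 1.22, 0.316 and 9.79 FPKM in those labelled WT. Slc10a2, the ileal bile acid transporter, stayed between 0.223 and 0.391 FPKM in KO and between 0.0669 and 1.94 FPKM in WT. Gata4, a transcription factor of the more proximal small intestine, named after its values were seen, stood at 44.8 ± 6.70 FPKM in KO and 42.7 ± 3.65 FPKM in WT (SD, n = 3 each). Fabp6 was thus at most 2.41 FPKM in 5 of the 6 libraries, with WT 3 as the exception, and the Reg levels below are those of the libraries as labelled.

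Reg3b was the highest of the family in every library. It reached 3141, 4099 and 3504 FPKM in the libraries labelled KO 1, 2 and 3, against 3874, 9184 and 7520 FPKM in those labelled WT 1, 2 and 3. WT 2 and WT 3 were well above the other 4 libraries, while WT 1 lay between KO 3 and KO 2, so the groups overlapped. Among all genes of a library Reg3b ranked between 5 and 12. Reg3g stood at 1150, 1864 and 1595 FPKM in libraries labelled KO, against 1785, 4438 and 2307 FPKM in those labelled WT. It ranked between 9 and 42, and its 6 libraries had the same order as those of Reg3b, with KO 1 lowest and WT 2 highest. These values rest on about 22723 to 68410 fragments per library for Reg3b and 8436 to 32550 for Reg3g, so counting error is small beside the spread between libraries.

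Reg4 stood at 117, 148 and 113 FPKM in libraries labelled KO, against 169, 109 and 98.8 FPKM in those labelled WT. Its highest and its lowest library were both labelled WT. Reg3a stood at 111, 75.1 and 85.7 FPKM in KO, against 122, 73.9 and 97.7 FPKM in WT. Again the highest and lowest library, WT 1 and WT 2, were both labelled WT. Reg1 stood at 14.6, 55.6 and 31.0 FPKM in KO, against 26.4, 47.4 and 9.39 FPKM in WT. It varied most of the 5, by 5.92 times between its lowest library, WT 3, and its highest, KO 2, against 1.65 times for Reg3a, 1.71 times for Reg4, 2.92 times for Reg3b and 3.86 times for Reg3g. The Reg1 values rest on about 64 to 354 fragments.

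**Figure D1:**
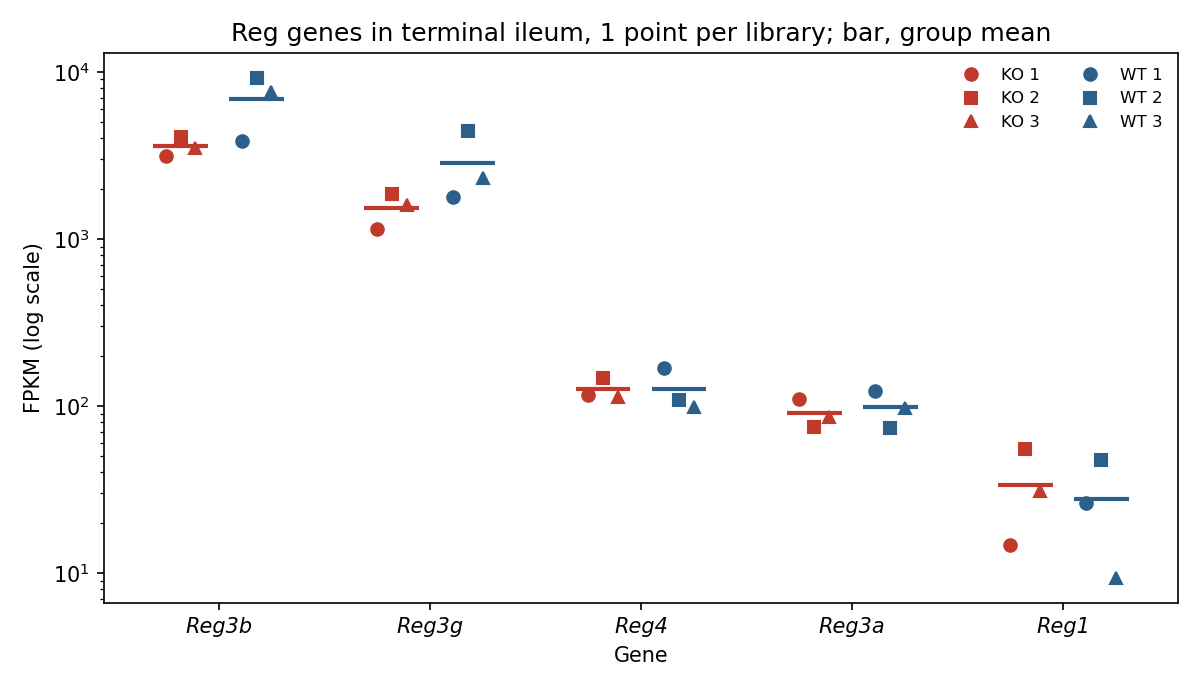
FPKM of the 5 Reg genes on a log axis, 1 point per library (red, labelled KO; blue, labelled WT; the marker gives the replicate number) with a bar at each group mean. The Reg3b points of WT 2 and WT 3, 9184 and 7520 FPKM, sit above all others, and the groups overlap for every gene.

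The order of levels, Reg3b over Reg3g over Reg4 over Reg3a over Reg1, held in 6 of 6 libraries at every step. Reg3b was 2.38 times Reg3g by the ratio of means over all libraries, and Reg3g was 17.4 times Reg4. Reg4 and Reg3a were close, with a ratio of means of 1.33, and in WT 3 they differed by only 0.02 on the log2 scale. Reg3a was 3.07 times Reg1. Reg3b and Reg3g together made up 94.7% to 98.3% of the summed FPKM of the 5 genes with Reg2 and Reg3d. That sum was 4533, 6242 and 5330 FPKM in libraries labelled KO, against 5977, 13852 and 10034 FPKM in those labelled WT. As a share of all FPKM it was 0.849%, 1.19% and 1.08% in KO and 0.994%, 2.52% and 1.89% in WT. The ratio of Reg3g to Reg3b was 0.425 ± 0.0513 in KO and 0.417 ± 0.0961 in WT (SD, n = 3 each), a difference smaller than the spread between libraries.

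The other 2 genes of the cluster were close to silent. Reg2 was listed at 0 in all 6 libraries. Reg3d, which in the mouse is known from the pancreas, had 0, 0.364 and 0.245 FPKM in libraries labelled KO and 0.164, 1.01 and 0.887 FPKM in those labelled WT. Its values rest on about 0 to 8 fragments and were too low to be tested, with WT 2 and WT 3 again highest. Of 15 pancreatic acinar genes, 10, among them the digestive enzyme genes Prss1, Cpa1, Pnlip and Cel, were listed at 0 in every library. Cela1, an elastase gene, stood at 2.69 to 3.24 FPKM in KO and 2.17 to 3.90 FPKM in WT. Clps, the colipase gene, was the highest of the 15, at 213 to 306 FPKM in KO and 273 to 437 FPKM in WT.

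**Figure D2:**
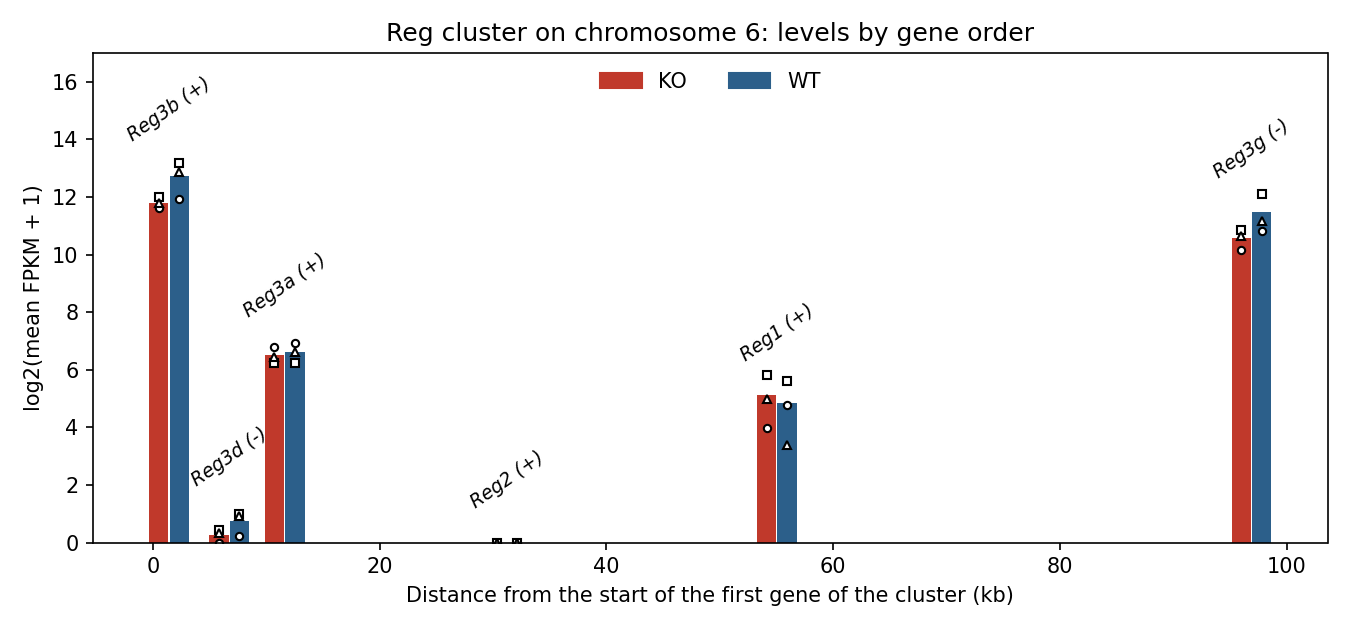
Levels along the Reg cluster of chromosome 6: bars give log2 of the group mean FPKM plus 1 (red, KO; blue, WT) at each gene's distance in kb from the first base of the cluster, markers give single libraries, and the sign gives the strand. The tall bars at both ends are Reg3b and Reg3g, and Reg2 is at 0.

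Between the groups, none of the 5 Reg genes passed the test. limma's moderated test on log2(FPKM + 1), with Benjamini-Hochberg adjustment over the 12695 genes that averaged at least 1 FPKM and a threshold of 0.05, called 0 of them, and it called 0 genes in all (0.0%). At an unadjusted p under 0.05 the count was 0 of the 5 as well, against 459 of all tested genes (3.62%; 1.07% lower and 2.54% higher in KO), and with limma's array weights 24 genes passed after adjustment, none of them a Reg gene. The unadjusted count of 0 Reg genes depended on the setting. Reg3b was under 0.05 in 9 of the 18 alternatives and Reg3g in 6, among them limma without the trend, robust estimation, median-of-ratios scaling and array weights. The groups overlapped for all 5, whereas 1062 tested genes (8.37%; 2.6% lower and 5.77% higher in KO) had groups that did not. In whole tissue, fewer cells of a type and less RNA per cell cannot be told apart, and this holds for every difference given here.

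Reg3b averaged 3582 ± 484 FPKM in the libraries labelled KO and 6859 ± 2716 FPKM in those labelled WT (SD, n = 3 each), a ratio of means of 0.522. On the log2(FPKM + 1) scale the fold change was -0.86 with a standard error (SE) of 0.37 (limma adjusted p = 0.998) and a 95% interval of -1.72 to 0.0041, which spans folds of 0.304 to 1.00. Reg3g averaged 1537 ± 361 FPKM in KO and 2843 ± 1405 FPKM in WT (SD, n = 3 each), a ratio of means of 0.540. On the same scale its fold change was -0.81 (SE 0.36, interval -1.65 to 0.03, limma adjusted p = 0.998). The unadjusted limma p was 0.0509 for Reg3b and 0.0578 for Reg3g, and an exact two-sided permutation test over the libraries, which cannot go below 0.1 with 3 a side, gave 0.2 for each. Both intervals include 0, and the spread was widest among the WT libraries. Of all tested genes, 40 (0.315%) had a log2 fold change at or below that of Reg3b and 46 (0.362%) at or below that of Reg3g. Among the 44 genes that averaged at least 1000 FPKM, Reg3b and Reg3g had the fifth and the sixth lowest log2 fold change, after 4 alpha-defensin genes or copies.

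Both estimates moved with single libraries. Without WT 1, the WT library with the lowest values of both genes, the log2 fold changes were -1.22 for Reg3b (limma adjusted p = 0.849) and -1.09 for Reg3g. Without WT 2 they were -0.60 and -0.43. Under quantile normalization, which forces all libraries to 1 distribution and thereby limits what the most abundant genes can show, they were -0.11 for Reg3b and -0.42 for Reg3g.

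The other 3 estimates lay close to 0 or had wide intervals. Reg3a averaged 90.5 ± 18.3 FPKM in KO and 98.0 ± 24.2 FPKM in WT (SD, n = 3 each), with a log2 fold change of -0.10 (interval -0.58 to 0.38, exact permutation p = 0.8). Reg4 averaged 126 ± 19.1 FPKM in KO and 125 ± 37.9 FPKM in WT (SD, n = 3 each), with a log2 fold change of 0.04 (interval -0.45 to 0.52, exact permutation p = 0.8). Reg1 averaged 33.8 ± 20.6 FPKM in KO and 27.7 ± 19.0 FPKM in WT (SD, n = 3 each), with a log2 fold change of 0.35 (interval -1.07 to 1.76, exact permutation p = 0.7). For Reg3a and Reg4 the intervals exclude a change as large as the -0.86 of Reg3b, and for Reg1 the interval spans folds of 0.477 to 3.39. Whether the Reg genes differed from each other in their group difference was not tested. All of these estimates except those of Reg3b and Reg3g changed sign when some library was left out.

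**Figure D3:**
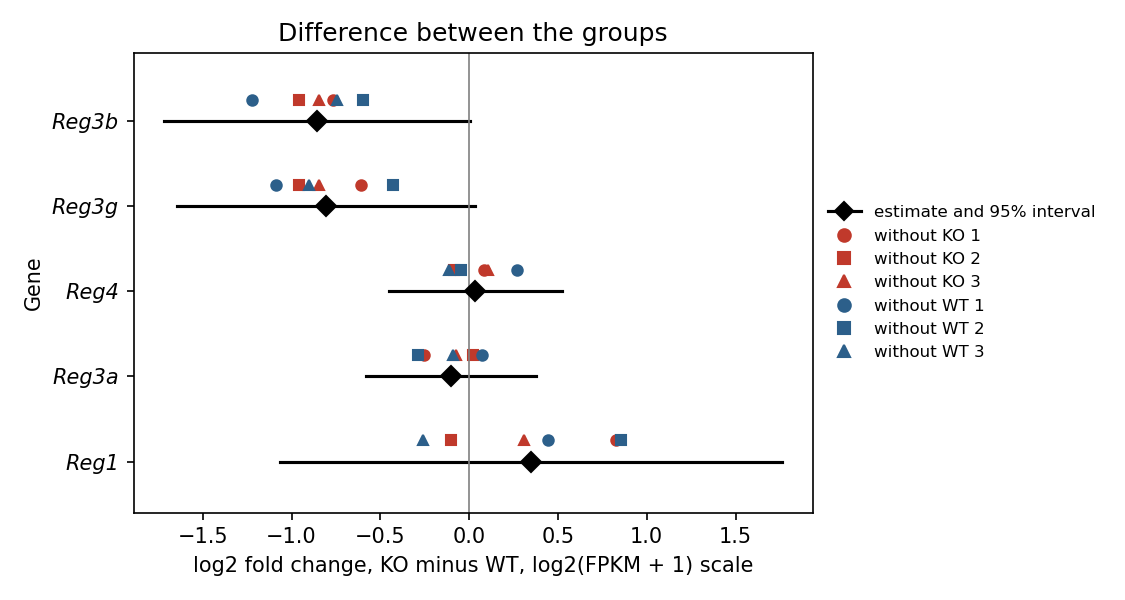
Log2 fold change of each Reg gene, KO minus WT, with its 95% interval (black) and, just above it, the estimate without each library in turn (red, a KO library left out; blue, a WT library left out). The estimates of Reg3b and Reg3g stay below 0 in all 6 omissions, while those of Reg4, Reg3a and Reg1 fall on both sides.

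Some sets of cell type markers had mostly higher or mostly lower estimates in KO. The sums of the B cell, Paneth cell, enterocyte and crypt markers overlapped between the groups. Those of the 15 enteroendocrine markers did not, at 186 to 204 FPKM in KO and 216 to 228 FPKM in WT. Of their 13 tested genes, 8 had estimates below 0 and 5 above (median log2 fold change -0.09). Of 9 crypt stem and proliferating cell markers, 8 lay above 0 (median 0.16), and Ascl2 had an unadjusted limma p under 0.05. The 12 B cell markers summed to 99.4, 124 and 17.8 FPKM in the libraries labelled KO and to 23.4, 19.8 and 11.7 FPKM in those labelled WT. KO 1 and KO 2 were far above the rest, and no marker was at 0 in every library. All 12 had estimates above 0 (median log2 fold change 1.45). Of these, 11 had an unadjusted limma p under 0.05, against 2.54% of all tested genes on that side, and 0 passed the adjusted threshold. All 12 had a negative r with Reg3b and with Reg3g, as did 8668 and 7197 of all tested genes. With KO 3 as the only KO library, whose B cell sum lay in the WT range, the log2 fold changes were -0.88 for Reg3b and -0.72 for Reg3g. These values rest on KO 3 alone and do not separate B cell content from genotype. All 12 Paneth cell markers had estimates below 0, as did 5281 of the 12695 tested genes (median log2 fold change -0.30, against 0.03 over all tested genes). Of the 12, 4 had an unadjusted p under 0.05, against 1.07% of all tested genes on that side, and 0 passed the adjusted threshold. Their sums ran from 21452 to 33434 FPKM in KO and from 26722 to 44843 FPKM in WT, and none was at 0. Of 13 tested enterocyte markers 12 had estimates below 0 (median -0.17), and their sums ran from 8090 to 16633 FPKM in KO and from 9837 to 16951 FPKM in WT. The part of B cell, Paneth cell, enterocyte, enteroendocrine or crypt cell content in the Reg3b and Reg3g differences was not tested.

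Reg3b and Reg3g varied together. Over the 6 libraries their log2 values had a Pearson r of 0.92 (exact permutation p = 0.00139, the smallest that 6 libraries allow; adjusted over 10 pairs 0.0139) and a Spearman rho of 1.0 (exact permutation p = 0.00278, adjusted 0.0278). WT 2 and WT 3 stand apart from the other 4 libraries for Reg3b. Without them r was 0.96 over the 4 that remain. With the group means removed it was 0.85, given as a description (adjusted permutation p = 0.102, not exact for values centred by group). With genes ranked by their r to Reg3b, Reg3g was the 15th of 8847 genes that averaged at least 5 FPKM, and Reg3b was the 9th most like Reg3g.

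None of the other 9 pairs passed the exact permutation test on the values themselves after adjustment over the 10 pairs. Reg3a ran opposite to both, with r = -0.44 to Reg3b (rho -0.60, adjusted exact permutation p = 0.618) and r = -0.58 to Reg3g (rho -0.60, adjusted exact permutation p = 0.618). Without KO 1 and WT 2, the libraries farthest from the Reg3g median, the r of Reg3a and Reg3g was 0.12 in place of -0.58, while leaving out any 1 library kept it between -0.71 and -0.27. With group means removed it was -0.97 (adjusted permutation p = 0.0139). Values centred within each group cannot be exchanged freely between groups, so this p is not exact and the r is a description. Reg3a and Reg1 had r = -0.66 (rho -0.71, adjusted exact permutation p = 0.618; r without 2 libraries -0.86). Reg1 and Reg3b had r = 0.0055 (adjusted exact permutation p = 0.993). The remaining pairs lay between -0.51 for Reg3b with Reg4 and 0.44 for Reg1 with Reg4. The 1 pair that passed stands at the far ends of the cluster.

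The genes most like each Reg gene were taken by the highest Pearson r over the 6 libraries. These r values are the extremes of 8847 genes and are given as descriptions with no test. Closest to Reg3b were Duoxa2 (0.98), the maturation factor of the dual oxidase, Sec22b (0.98), a SNARE of transport between endoplasmic reticulum and Golgi, the small nucleolar RNA Snord89 (0.97), Tifa (0.97), an adaptor of innate NF-kB signalling, and Slc51b (0.97), a subunit of the basolateral bile acid exporter. Duoxa2 stood at 7.23, 9.60 and 9.07 FPKM in libraries labelled KO, against 7.69, 25.9 and 23.1 FPKM in those labelled WT. Tifa stood at 23.2, 26.8 and 25.5 FPKM in KO, against 27.6, 80.3 and 93.7 FPKM in WT. Like Reg3b, both were high in WT 2 and WT 3 and near the KO level in WT 1. Snord89 was listed at 0 in 4 libraries and at 1070 and 565 FPKM in WT 2 and WT 3, so its r rests on those 2.

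Closest to Reg3g were Mfsd4 (1.00), a membrane transporter, B3gnt7 (0.98), a glycosyltransferase, Il11ra1 (0.96), the interleukin-11 receptor, Ociad2 (0.96) and Aplp2 (0.96). Ociad2 stood at 33.4, 43.7 and 40.6 FPKM in KO, against 41.0, 54.2 and 47.8 FPKM in WT, a narrower range than that of Reg3g. B3gnt7 stood at 5.18, 6.73 and 6.34 FPKM in KO, against 5.91, 12.8 and 7.61 FPKM in WT, with WT 2 alone far up. Between 12 and 128 genes reached an r of 0.9 with any 1 Reg gene, fewest for Reg3g (12) and Reg3b (27) and most for Reg1 (128).

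Among 13 tested epithelial genes that IL-17 or IL-22 is known to induce, 3 reached r = 0.8 with Reg3b and 3 with Reg3g (23.1% each), against 0.993% and 0.614% of all tested genes. They were Duoxa2, Tifa and the oxidase gene Duox2, which was named after its values were seen. All 3 had their highest values in WT 2 and WT 3. The medians over the list were only 0.18 for Reg3b and 0.10 for Reg3g. This list was chosen with earlier results of these data known, so the shares are descriptions and not a test. Duox2 stood at 21.9, 35.5 and 38.7 FPKM in KO, against 28.3, 75.1 and 46.1 FPKM in WT (r = 0.89 with Reg3b and 0.95 with Reg3g). Socs3, the feedback inhibitor of STAT3 signalling, stood at 11.3, 10.3 and 7.40 FPKM in KO, against 8.98, 33.4 and 16.9 FPKM in WT (r = 0.90 with Reg3b and 0.86 with Reg3g). It too was highest in WT 2 and then WT 3, but the IL-22 and STAT3 genes as a list did not share this. Of the 8 tested, 4 had a positive and 4 a negative r with Reg3b (median 0.0078), and 3 and 5 with Reg3g (median -0.30). The kinase gene Tyk2 had -0.89 and -0.75. Other genes of the list induced by IL-17 or IL-22 did not reach 0.8 with either. Lcn2, the siderophore-binding lipocalin, had r = 0.32 with Reg3b, and S100a8, a calprotectin subunit, had 0.18. Of that list, 5 genes had a negative r with Reg3b and 3 with Reg3g, among them Retnlg (-0.60 and -0.57) and Ccl20 (-0.40 and -0.71). Of the 13 enterocyte markers, 1 reached 0.8 with both, the fatty acid binding protein gene Fabp1 (0.83 with Reg3b and 0.90 with Reg3g), and the medians over that list were 0.27 and 0.0062.

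**Figure D4:**
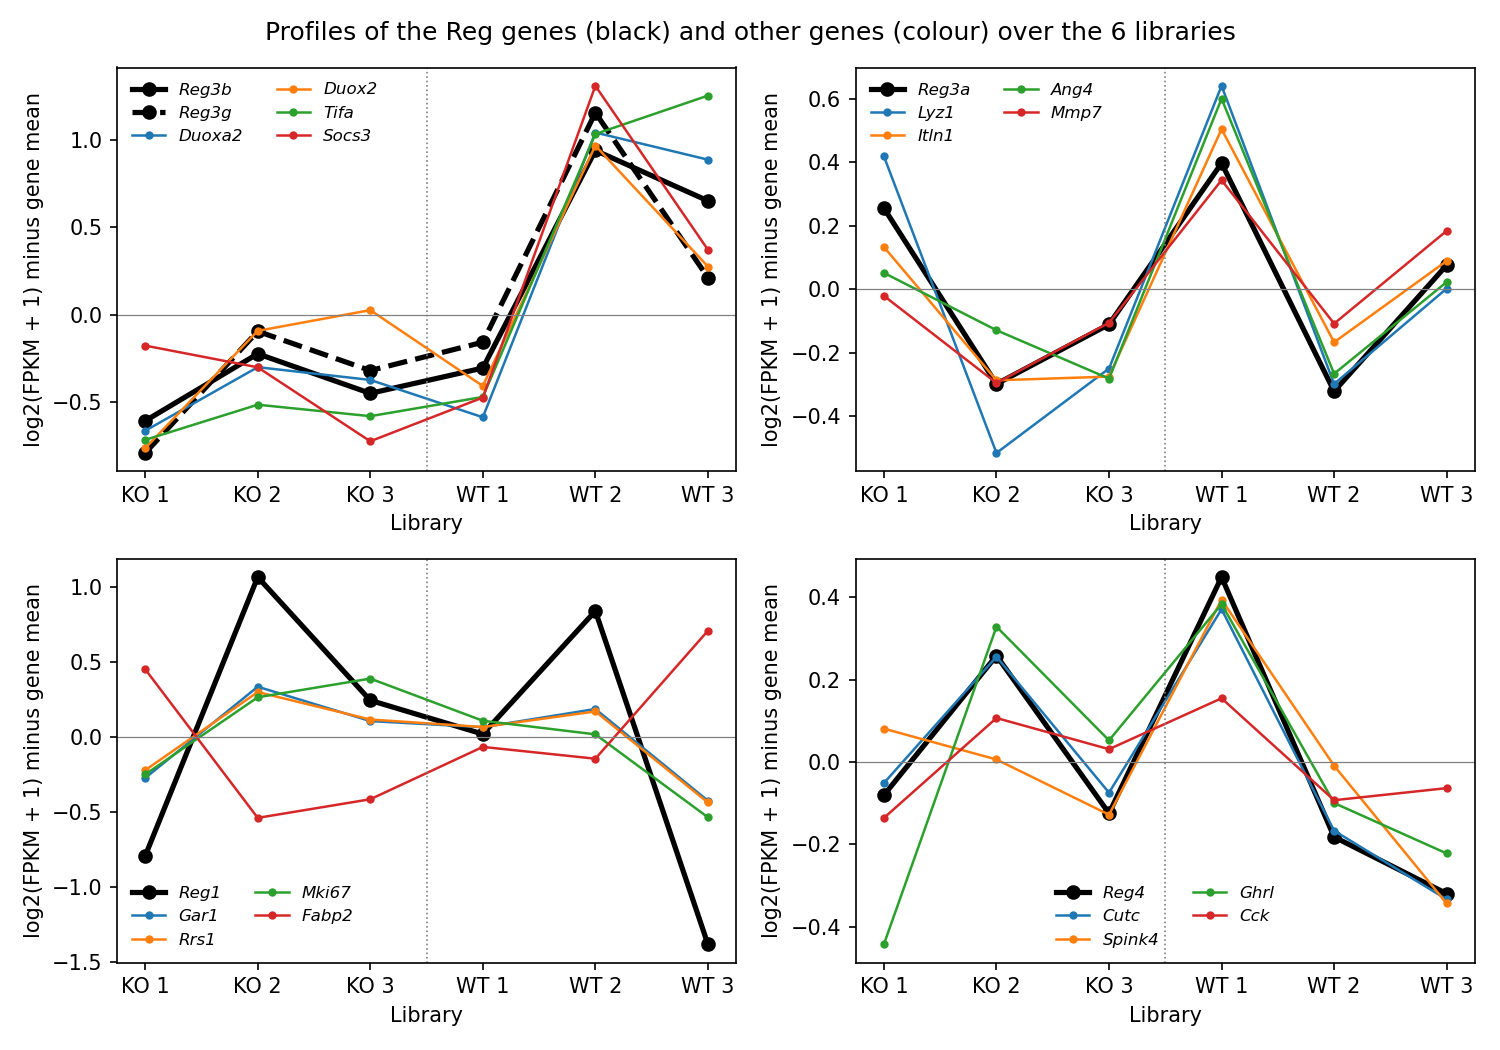
Each panel plots log2(FPKM + 1) minus the gene's own mean in the 6 libraries, KO left of WT, for Reg genes (black) and genes named in the text (colour). Reg3b, Reg3g, Duoxa2, Tifa and Socs3 peak in WT 2 and WT 3, Reg3a and Lyz1 are highest in KO 1 and WT 1, and Reg1 runs opposite to Fabp2.

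The pathway upstream of Reg3b and Reg3g was read from its own genes, and 0 genes of each list passed the adjusted threshold in either direction. Of the cytokine genes in these lists, Il17a, Il17f, Il17c, Il22 and Il23a were all at or below 0.233 FPKM in every library. Il25 reached at most 0.246 FPKM and Il12b at most 0.449 FPKM. At such levels a value rests on few fragments. Of 10 tested IL-17 receptor and signalling genes, 4 had estimates below 0 and 6 above (median log2 fold change 0.03), and of 8 tested IL-22 and STAT3 genes 4 and 4 (median -0.01). Il22ra2, the soluble decoy receptor of IL-22, had an unadjusted limma p under 0.05 and was higher in KO (0.61). Its groups overlapped, with KO 3 at 1.49 FPKM against 1.08 to 1.81 FPKM in WT. Of 13 genes of Toll-like receptor and MyD88 signalling, 6 lay below 0 and 7 above (median 0.02). Tlr9 (0.69) and Tlr1 (0.58) had an unadjusted limma p under 0.05, both higher in KO. For Tlr9 the groups overlapped, with KO 3 at 1.83 FPKM against 0.983 to 2.02 FPKM in WT, while for Tlr1 they did not. Groups also did not overlap for Nod2, higher in KO, and Tirap, lower in KO. Among all tested genes, 5.77% had groups that did not overlap and were higher in KO, and 2.6% were lower. Stat3 stood at 38.7, 35.8 and 32.4 FPKM in KO, against 34.5, 42.5 and 47.0 FPKM in WT, with an r of 0.79 to Reg3b and 0.51 to Reg3g. Downstream, the 13 genes induced by IL-17 or IL-22 had 8 estimates below 0 and 5 above (median -0.33), and 1, Tifa, had an unadjusted p under 0.05 (log2 fold change -1.21, lower in KO). Over all tested genes, 1.07% were lower and 2.54% higher at that threshold. Of 11 other antimicrobial genes, 10 lay below 0 and 1 above (median -0.24), against 5281 below 0 among the 12695 tested genes. Pla2g2a and Mptx2 had an unadjusted limma p under 0.05, both lower in KO. These 2 genes, Lyz1, Ang4, Itln1 and Mmp7 are also in the Paneth cell list, so the 2 lists are not separate counts. Extl3, a receptor candidate for REG proteins, stood at 10.7, 11.1 and 11.0 FPKM in KO, against 10.5, 10.1 and 9.36 FPKM in WT. Its groups did not overlap, as for 5.77% of tested genes on that side, and the log2 fold change was only 0.11 (SE 0.09, limma adjusted p = 0.998).

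Reg3a had positive r values with most Paneth cell genes. Of 12 Paneth cell markers, 11 had a positive r with Reg3a and 5 reached 0.8 (41.7%, against 2.88% of all tested genes), with a median of 0.74 over the list and of -0.0032 over all tested genes. These r values and shares are descriptions over the same 6 libraries, from a list chosen with earlier results of these data known. The 5 genes that reached 0.8 were named after their values were seen. They were Lyz1 (0.97), the Paneth cell lysozyme, Itln1 (0.91), an intelectin, Ang4 (0.85), an antimicrobial ribonuclease, Mmp7 (0.83), the protease that activates alpha-defensins, and the alpha-defensin Defa24 (0.83). Lyz1 stood at 7397, 3869 and 4653 FPKM in KO, against 8628, 4499 and 5542 FPKM in WT. Like Reg3a, it was highest in WT 1 and KO 1 and lowest in KO 2 and WT 2. The same list had medians of 0.06 with Reg3b, 0.04 with Reg3g and -0.40 with Reg1. The genes most like Reg3a over the whole table were Hspb8 (0.99), a small heat shock protein, March8 (0.99), a ubiquitin ligase, Rab28 (0.98), Inpp1 (0.98) and Dcn (0.97), the stromal proteoglycan decorin. Colipase, Clps, also had r = 0.81 with Reg3a.

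Reg1 had positive r values with most genes of proliferating crypt cells and negative ones with most enterocyte genes. Of 13 enterocyte markers 12 had a negative r with Reg1 (median -0.67), among them Fabp2, a fatty acid binding protein (-0.93), the aminopeptidase gene Anpep (-0.87) and the meprin gene Mep1a (-0.84). Of 9 crypt stem and proliferating cell markers 8 had a positive r (median 0.73), with Mki67 at 0.83 and the replication licensing gene Mcm2 at 0.82. Over all tested genes the median r with Reg1 was 0.29, and 7.73% reached 0.8, so many genes shared this profile. Closest to it were Vps51 (0.99), Gar1 (0.99) and Rrs1 (0.98), Arpc4 (0.98) and Srm (0.98). Gar1 and Rrs1 serve ribosomal RNA processing and ribosome assembly, and Srm is spermidine synthase. Gar1 stood at 7.12, 11.4 and 9.56 FPKM in KO, against 9.27, 10.2 and 6.31 FPKM in WT. Like Reg1, it was highest in KO 2 and WT 2 and lowest in WT 3 and KO 1.

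Reg4, with nearly equal group means, ran opposite to the enterocyte genes. All 13 enterocyte markers had a negative r with it (median -0.45). Among secretory markers, named after their values were seen, the goblet cell gene Spink4 had r = 0.84 and the hormone genes Cck and Ghrl 0.83 and 0.80, but the medians over the goblet and enteroendocrine lists were 0.10 and 0.14, below the 0.31 over all tested genes. Spink4 stood at 1386, 1316 and 1199 FPKM in KO, against 1721, 1302 and 1033 FPKM in WT, with WT 1 highest as for Reg4. Closest to Reg4 over the whole table were Cutc (0.99), Arfgap2 (0.99), Rnaset2a (0.99), Gle1 (0.98) and Gng2 (0.98).

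**Figure D5:**
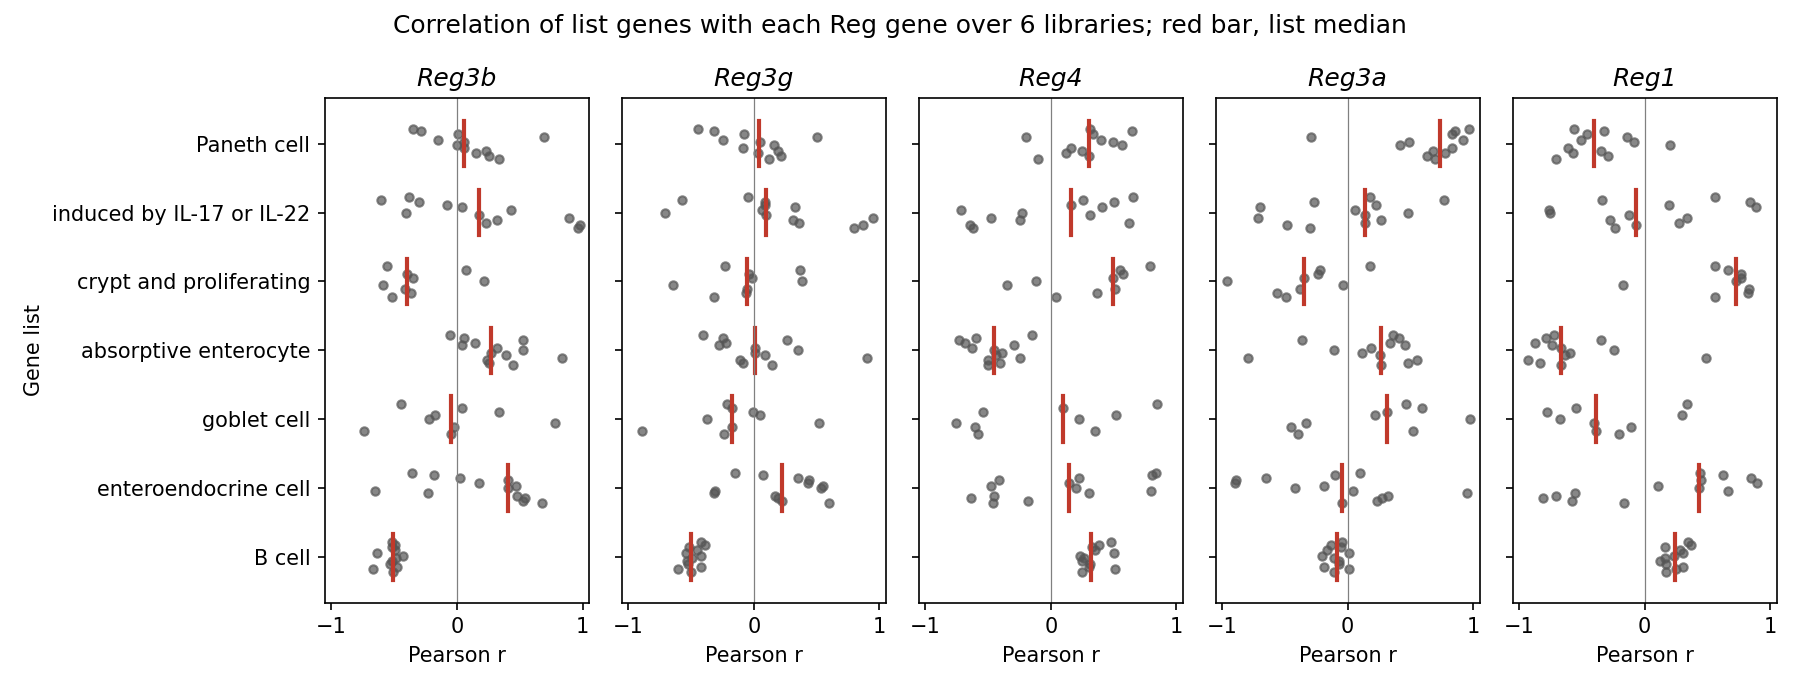
Pearson r over the 6 libraries between each Reg gene (panels) and the tested genes of 7 lists (points, 1 per gene; red bar, list median). Paneth cell genes lie to the right for Reg3a (median 0.74) and around 0 for Reg3b (0.06), and enterocyte genes lie to the left for Reg1 (median -0.67).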

How the data were processed

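RNA from DSS-treated intestine was made into directional libraries with the NEBNext Ultra II kit, per the labels' protocols. The authors deposited 1 table of FPKM values, 1 column per library. STAR, Cufflinks, Cuffnorm, FastQC, Trimmomatic, bedtools and SAMtools stand in the submitters' processing notes, with the builds mm10 and GRCm38. The sources used here give no versions, library scaling or strand settings. No count model was used, since FPKM are not counts.

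The 12695 genes that averaged at least 1 FPKM were tested on the log2(FPKM + 1) scale, which understates changes of low genes, with limma 3.58.1 (trend, two-sided) in R 4.3.3. The script was tested on simulated data. Correlations and exact permutation tests used Python 3.11.15, numpy 2.4.6 and scipy 1.17.1, promoters came from RefSeq and coding sequences from GENCODE M21, translated and aligned with Biopython 1.88. Fragments behind a value were estimated from depth and transcript length. The alternatives were other pseudocounts (0.1, 5), filters, scalings and limma settings, a replicate block, and libraries left out. The members and lists were chosen with earlier results of these data known. The named genes are the Reg genes, Extl3, Il17ra, Atoh1, up to 4 genes per list by smallest p and the 5 most correlated genes of each member; other genes were chosen after their values were seen. Of 187 list entries 184 were in the table.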

Additional observations from a re-analysis of the deposited data

How the results depend on the processing

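Reg3b and Reg3g stayed below 0 under all 18 alternatives, with limma adjusted p values from 0.0909 (array weights, log2 fold changes -1.15 and -1.23) to 1.0. Leaving out each library in turn gave -1.22 to -0.60 for Reg3b, -1.09 to -0.43 for Reg3g, -0.29 to 0.072 for Reg3a, -0.26 to 0.85 for Reg1 and -0.12 to 0.27 for Reg4. Reg3a reached 0.012 after rescaling to an equal sum, which moved the median of all genes to 0.13, and 0.055 with array weights. Reg4 was -0.0043 with median-of-ratios scaling and -0.11 with KO 3 as the only KO library. The number of genes called, 0 as reported, was 2 with pseudocounts of 0.1 or 5 or an equal sum, 24 with array weights, 4 with KO 3 alone and 0 to 46 over the omissions, the most without KO 3; a lone library was assumed to vary like the others. With the replicate number as a block it was 1, but numbers did not pair libraries (r of deviations -0.13, 0.03 and -0.11), and not every library correlated best with its own number. The r of Reg3b and Reg3g was 0.86 under quantile normalization (adjusted exact permutation p = 0.0926), 0.85 with group means removed, 0.96 without the 2 farthest libraries (adjusted exact permutation p = 0.417) and 0.85 to 0.99 over the omissions, where 5 libraries allow no adjusted p below 0.0833 and without WT 2 it was 0.833 (exact permutation). Other pairs changed sign: Reg3b with Reg1 at -0.0011 (pseudocount 0.1), -0.024 (median-of-ratios) and -0.50 to 0.61 over the omissions, Reg3g with Reg1 (-0.031 to 0.69) and Reg3a with Reg4 (-0.40 to 0.66). Without the 2 farthest libraries, Reg3b with Reg4 was 0.78, Reg3g with Reg3a 0.12, Reg3g with Reg1 -0.71, Reg3a with Reg4 -0.66 and Reg1 with Reg4 -0.20. Of 270 list medians under the alternatives, 37 moved by more than the spread. The causes were not tested. Depth limits Reg1, Reg3d and the cytokines.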
